A study of Mus musculus with 18 samples.

Results

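The cytosolic ribosomal protein genes were followed across mouse bladders injured with cyclophosphamide, with or without extra vitamin A in the diet. A gene was taken as a member when the count table called it protein coding and its symbol was Rpl or Rps with a number (with a final a, l or x allowed), Rplp0, Rplp1, Rplp2 or Rpsa, leaving out the Rps6k kinases. This gave 82 members among 46333 named genes, of which 48 belong to the large subunit, 31 to the small subunit and 3 to the P stalk. Counts were high enough for a test in 78 members, among 19323 genes tested. The 4 members that were too low, Rpl3l, Rpl32l, Rpl39l and Rpl10l, are given by their counts.

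Most ribosomal proteins are present once in each ribosome, apart from the stalk proteins Rplp1 and Rplp2, which occur as pairs, so the cell makes the set in matched amounts. Their messenger RNAs carry a run of pyrimidines at the 5′ end, the TOP motif, through which mTOR signalling and the binding protein Larp1 control translation. Free Rpl5 and Rpl11, held with 5S ribosomal RNA, bind Mdm2, the ligase that degrades p53, and so tie ribosome assembly to the p53 response. Rps27l is a paralogue of Rps27 and, like Mdm2, is a known p53 target gene. Cyclophosphamide is an alkylating drug whose metabolites collect in urine and damage the urothelium, the lining of the bladder, which then regenerates.

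All animals were female wild type BALB/c mice of 8 weeks, and RNA came from the whole urinary bladder, so fewer cells of a type and less RNA per cell cannot be told apart. There were 6 groups of 3 libraries, labelled as biological replicates. Mice ate a normal diet or a diet with 566081 UI of retinyl acetate per kg (the series text names retinyl palmitate instead) from 1 week before injection. The saline groups were collected 1 day after saline, and the cyclophosphamide groups 1 or 3 days after an intraperitoneal dose of 150 mg/kg. Any comparison of 3 days with saline therefore also differs in the day of collection, and cages of 3 mice are not matched to animals in the labels. The study asked how dietary vitamin A affects early regeneration of the urothelium.

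Libraries held 19439887 to 34431039 counts on named genes. Members took 4.16% to 8.82% of them, and other genes shorter than 1 kb took 4.74% to 8.82%. In the saline groups members took 4.77%, 5.11% and 4.46% on the normal diet and 6.18%, 5.78% and 5.08% on vitamin A. At 1 day they took 5.25%, 5.28% and 5.57% on the normal diet and 4.16%, 4.93% and 4.25% on vitamin A. At 3 days they took 5.50%, 4.35% and 4.78% on the normal diet and 4.18%, 8.82% and 5.07% on vitamin A. Replicate 2 of the 3-day vitamin A group stood apart: 14.2% of its counts lay on genes under 1 kb, members included, against 7.13% to 10.8% in the other 17 libraries, and its sample weight was the lowest, 0.152. Results that rest on it are given with and without it. It also enters the estimate of spread shared by all groups, and so the p-values of the saline and 1-day comparisons. Those comparisons were fitted without it only where just the groups compared were kept. The ratio of member counts to counts on other genes under 1 kb was 0.906 ± 0.0125 (SD, n = 3) in the saline normal-diet group and 0.982 ± 0.0408 in the saline vitamin A group. It was 0.769 ± 0.0168 at 1 day on the normal diet and 0.659 ± 0.0471 at 1 day on vitamin A. At 3 days it was 0.852 ± 0.00797 on the normal diet and 0.910 ± 0.0793 on vitamin A, where replicate 2 had 0.999. The ratio was thus lower in all 6 cyclophosphamide libraries at 1 day than in any of the other 12. On the normal diet the member shares above were higher at 1 day than after saline. There the other genes under 1 kb took a mean of 6.99% at 1 day and 5.28% after saline. On vitamin A these genes took a mean of 6.77% at 1 day and 5.78% after saline. The 10 umbrella cell markers were all detected, at a summed 5856 to 10330 CPM (counts-per-million of the library size after TMM scaling).

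**Figure D1:**
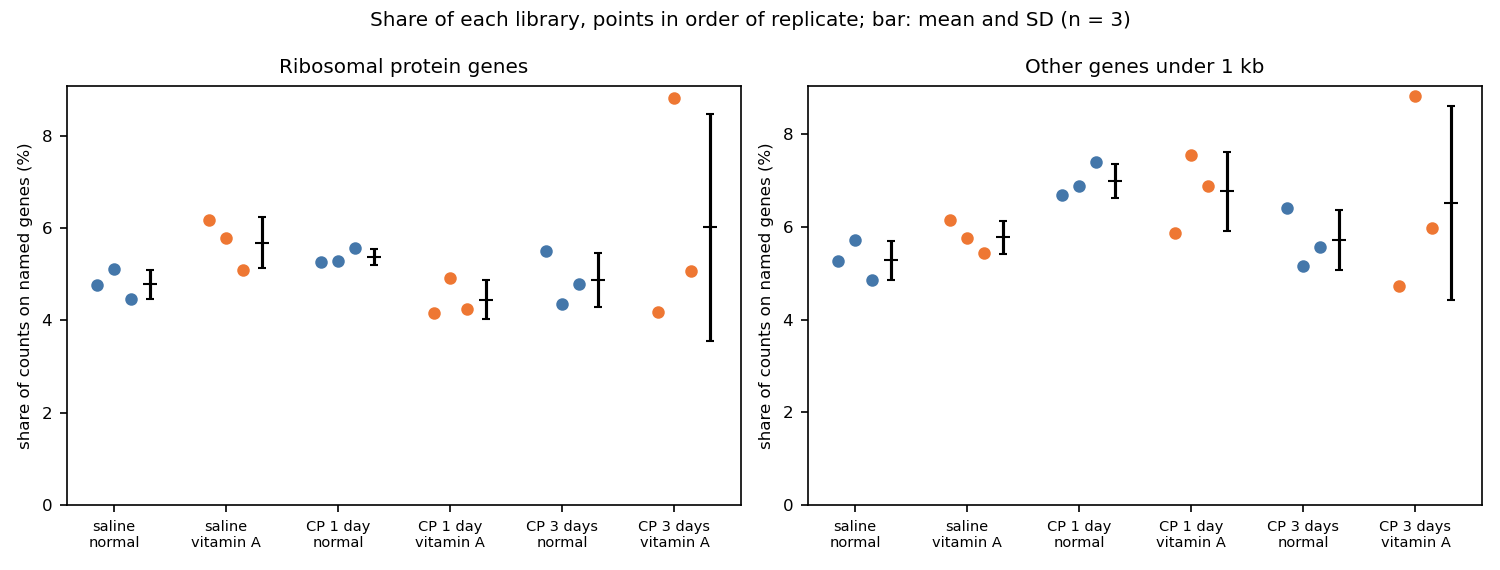
Share of each library's counts on named genes (%) that fell on the 82 ribosomal protein genes (left) and on other genes under 1 kb (right), by group, with 1 point per library and a bar for mean and SD (n = 3). CP is cyclophosphamide. The 1-day vitamin A libraries lie between 4.16% and 4.93% on the left, while replicate 2 of the 3-day vitamin A group reaches 8.82% on both sides.

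Levels of different members were compared as CPM per kb of gene length, averaged over the 18 libraries. The highest were Rpl41 at 3350.0, Rplp1 at 2960.0 and Rps26 at 1955 CPM per kb. Rpl41 encodes the shortest ribosomal protein, Rplp1 an acidic protein of the stalk that recruits elongation factors, and Rps26 a protein at the exit of the messenger RNA channel. At the other end stood Rpl10l, at 0 in every library, Rpl3l at 0.0642 and Rpl39l at 0.0712 CPM per kb. Rpl3l is known as a striated muscle form of Rpl3, and Rpl10l and Rpl39l as testis forms of Rpl10 and Rpl39. Over all libraries Rpl3l had 51 counts, Rpl32l 41, Rpl39l 29 and Rpl10l 0. The lowest members tested were Rpl21 at 0.726 and Rpl29 at 1.32 CPM per kb. The table also holds rows for near-identical pseudogenes, which can draw a gene's reads. Of the counts on Rpl21 and its 4 named pseudogenes, 99.0% were assigned to the pseudogenes. For Rps2 this share was 97.9% over 10 pseudogenes, for Rpl17 65.9% over 8, for Rps18 50.5% over 1, for Rps7 41.7% over 2, for Rpl3 31.6% over 2 and for Rpl14 24.2% over 1. For Rpl29 it was 8.14% over 4. In all, 226 pseudogene rows were named after 58 members, and in 13 members they took more than 10% of the counts of the family. Levels and changes of these 13, among them Rpl21, Rps2, Rpl17, Rps18, Rps7, Rpl3 and Rpl14, are therefore uncertain.

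At 1 day after cyclophosphamide on the vitamin A diet, 10 members fell and 1 rose. Rps27, a zinc finger protein of the small subunit, fell most. Its values were 942, 978 and 768 CPM in the saline vitamin A group and 266, 304 and 344 CPM at 1 day. The groups did not overlap, and the change was −1.59 on the log2 scale (SE 0.28), 3.00-fold lower, with an edgeR adjusted p of 0.000622. Rps27a, which encodes ubiquitin fused to a ribosomal protein, fell by 0.98 on the log2 scale (SE 0.33, edgeR adjusted p = 0.0460). It had 741, 447 and 373 CPM after saline and 223, 319 and 270.2 CPM at 1 day. Rpl36, a large subunit protein, fell by 0.92 (SE 0.30, edgeR adjusted p = 0.0389), from 737, 647 and 573 CPM to 352, 385 and 318 CPM. Rpl26, which sits near the exit of the peptide tunnel and is known to bind p53 messenger RNA, fell by 0.87 (SE 0.28, edgeR adjusted p = 0.0358), from 20.5, 16.0 and 12.9 CPM to 8.88, 9.57 and 9.20 CPM. In none of these 4 genes did the groups overlap. Rpl26 was low for a member, with 5656 counts over all libraries against 243045 for Rpl36, so its change is uncertain. Its named pseudogenes held 0.0883% of the family's counts, and the cause of the low level was not tested. Rps6, the substrate of S6 kinase, fell by 0.54 (SE 0.18, edgeR adjusted p = 0.0395), from 1106, 994 and 949 CPM to 714, 767 and 665 CPM. Rpl14 (−0.65), Rps7 (−0.57) and Rpl4 (−0.49) also fell, and were named after their values were seen. The changes of Rpl14 and Rps7 are uncertain because of their pseudogenes. The member that rose was Rps27l, by 0.70 (SE 0.21, edgeR adjusted p = 0.0244), from 95.9, 97.7 and 78.9 CPM to 139.9, 143.9 and 169 CPM without overlap. It was not past the threshold without 1-day vitamin A replicates 2 (0.0521) and 3 (0.0926) and saline vitamin A replicates 2 (0.0521) and 3 (0.125).

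The count of 10 fallen members of 78 stands beside 9.05% of all genes tested that fell, a share close to that of the members, and the 1 risen member beside 10.2% that rose (19.3% in either direction). Most member changes lay in 1 direction: 70 of 78 had a log2 change below 0, with a median of −0.42 against −0.01 over all genes tested. In 43 of 78 members all 3 values at 1 day lay below all 3 after saline, against 17.4% of all genes, and 1 member lay above, against 20.9%. The median was −0.37 in the 44 large subunit members and −0.44 in the 31 small subunit members. It was −0.42 in the 49 members under 1 kb and −0.38 in the 29 longer ones, while the 1785 other genes under 1 kb had a median of 0.09. The number of members past the threshold depended on single libraries. It was 3 without 1-day vitamin A replicate 1, 6 without its replicate 2 and 1 without its replicate 3. It was 2 without saline vitamin A replicate 1, 2 without its replicate 2 and 11 without its replicate 3. Rps27 passed in all 6 of these fits (edgeR adjusted p 0.00109 to 0.00377), while the median member change stayed between −0.52 and −0.32. Rps27a, Rpl36, Rpl26 and Rps6 each passed only without saline vitamin A replicate 3, and reached adjusted p of 0.254, 0.123, 0.163 and 0.142 without saline vitamin A replicate 1. With factors scaled on the other genes under 1 kb, 46 members fell and 1 rose, and with the share of those genes as a covariate 67 fell and 1 rose. The factors from the other genes under 1 kb moved the median of all genes by −0.14 here. The shift of all genes with the covariate is not given, so its count cannot be read as a result about members alone. The share used as covariate itself had a mean of 5.78% after saline and 6.77% at 1 day on vitamin A. DESeq2 called 17 lower and 1 higher. Shares over all genes are given only for the main edgeR test and for groups that do not overlap. Member counts under other settings, or by unadjusted p, have no such share beside them and are not set against all genes.

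**Figure D2:**
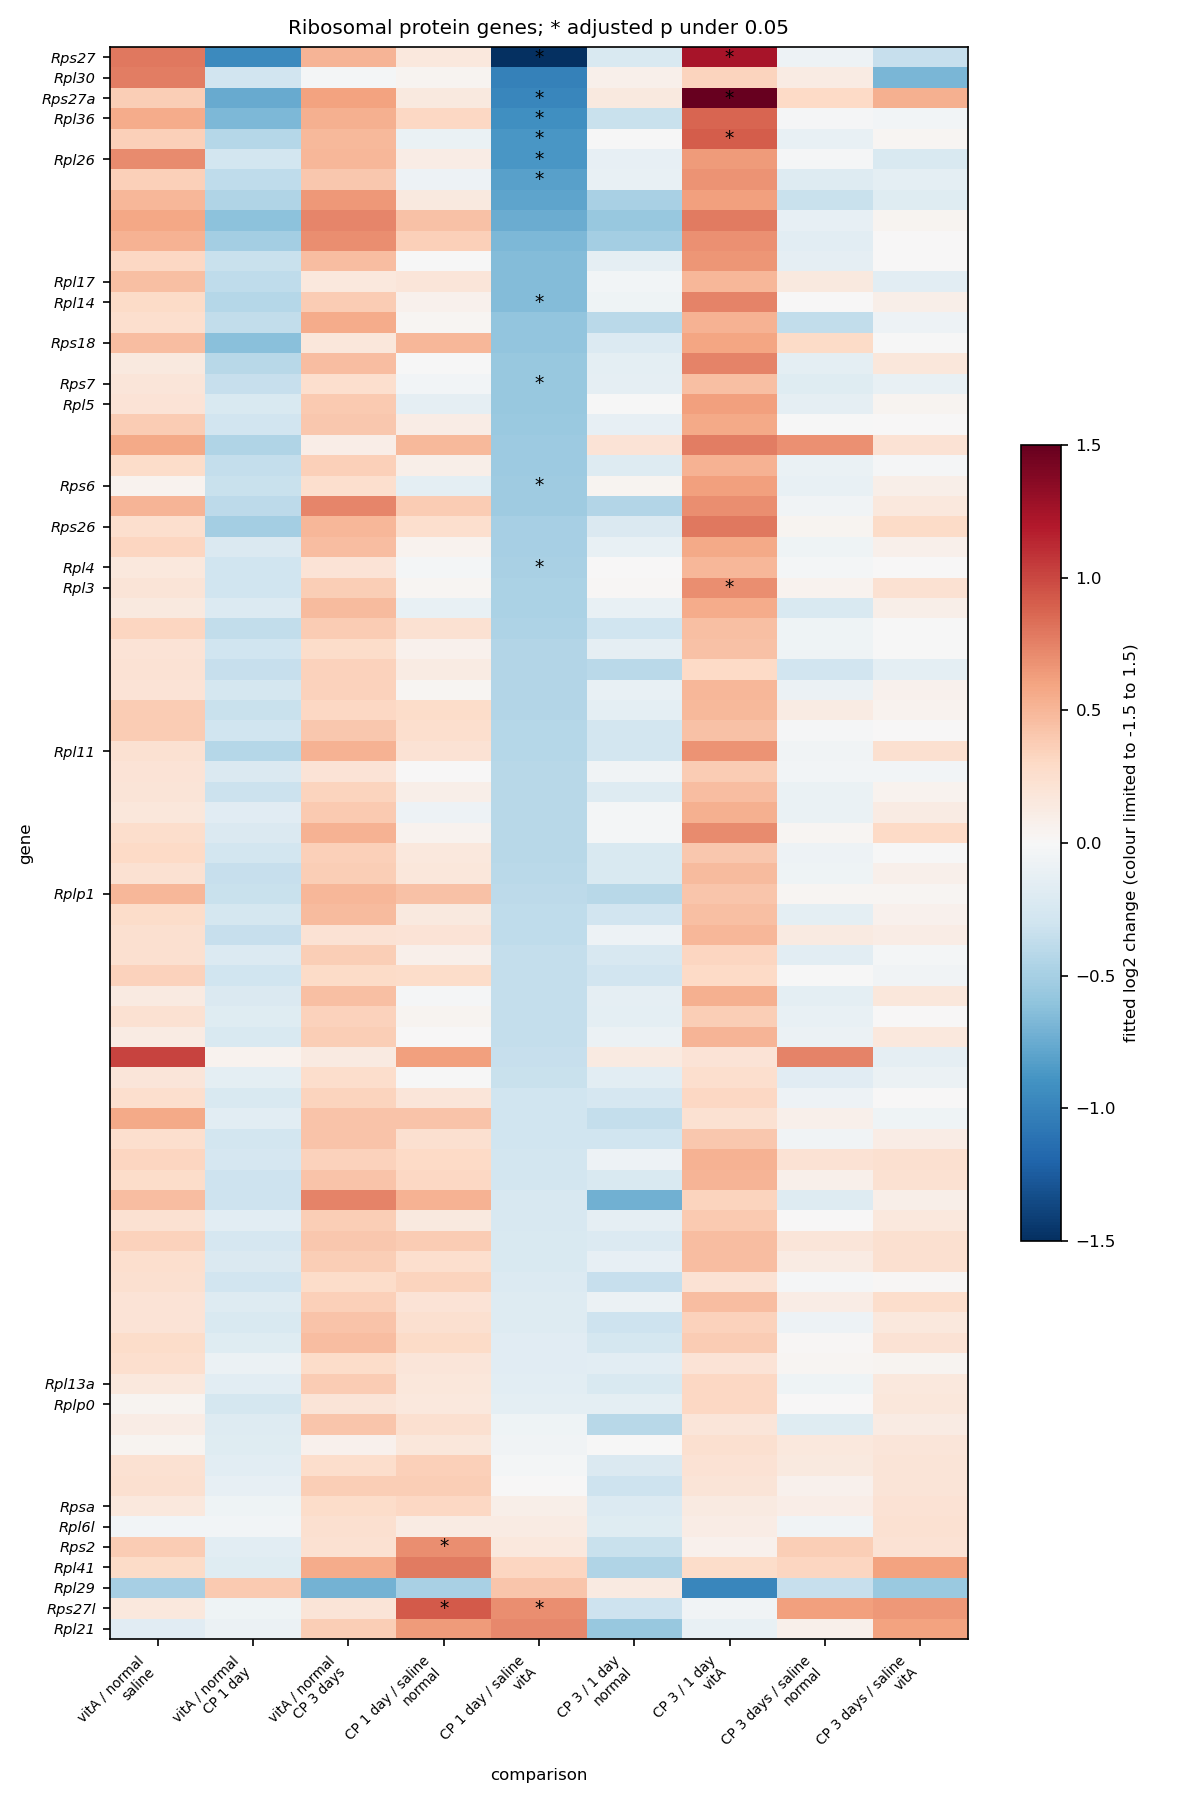
Fitted log2 change of each of the 78 tested ribosomal protein genes (rows) in 9 comparisons (columns), in colour limited to −1.5 to 1.5, with an asterisk at an edgeR adjusted p under 0.05 and labels on rows described in the text. CP is cyclophosphamide and vitA the vitamin A diet. Most rows are blue for 1 day against saline on vitamin A (70 of 78 below 0) and red for 3 days against 1 day on vitamin A (75 of 78 above 0).

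On the normal diet, 1 day after cyclophosphamide, 2 members rose and none fell, against 7.26% of all genes tested that rose and 4.49% that fell. More members were called with only the groups compared and with limma voom, in counts given in the closing section. Rps27l had 82.0, 92.4 and 73.4 CPM after saline and 133, 157 and 181 CPM at 1 day, with no overlap. It rose 1.90-fold, 0.92 on the log2 scale (SE 0.21, edgeR adjusted p = 0.00758), and passed in each of the 6 fits that left out 1 library (0.00884 to 0.0482). Rps2, a small subunit protein near the entry of the messenger RNA channel, had 10.5, 10.9 and 12.6 CPM after saline and 17.5, 15.7 and 21.7 CPM at 1 day. It rose by 0.69 (SE 0.22, edgeR adjusted p = 0.0429), a change that is uncertain because pseudogenes held 97.9% of the family's counts. That call held only without 1-day normal-diet replicate 2 (0.0490) among the fits that left out 1 library. The adjusted p of Rps2 was 0.0778 without 1-day normal-diet replicate 1, 0.197 without its replicate 3, and 0.139, 0.122 and 0.0822 without saline normal-diet replicates 1, 2 and 3. Rps27 did not pass, and its groups overlapped, with 509, 539 and 530.2 CPM after saline and 478.5, 610.5 and 677 CPM at 1 day (log2 change 0.16, edgeR adjusted p = 0.770). Over the members, 65 of 78 log2 changes were above 0 with a median of 0.17, but this direction turned with the scaling: the median was −0.17 with factors from other genes under 1 kb and −0.35 with their share as a covariate. The former factors moved the median of all genes by −0.35, and the other genes under 1 kb had a median of 0.28 in the main fit. In 32 of 78 members the 1-day values lay above all saline values, against 20.8% of all genes. With those factors 1 member, Rps27l, was called higher and 1 lower, and with the covariate Rps27l was called higher and 22 members lower.

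The paralogues Rps27 and Rps27l are shown with their coding sequences, because they could share reads only where their letters agree. Bases outside the coding sequences were not compared. Rps27 lies at chromosome 3, 90119974 to 90120955, on the minus strand, and Rps27l at chromosome 9, 66851906 to 66856804, on the plus strand, as the count table gives them (GRCm39 per the submitters' processing notes). The coding sequences below are the 255 bases of each from the GENCODE transcripts of GRCm38, 5′ to 3′, with capitals at each base that differs between them.
Rps27: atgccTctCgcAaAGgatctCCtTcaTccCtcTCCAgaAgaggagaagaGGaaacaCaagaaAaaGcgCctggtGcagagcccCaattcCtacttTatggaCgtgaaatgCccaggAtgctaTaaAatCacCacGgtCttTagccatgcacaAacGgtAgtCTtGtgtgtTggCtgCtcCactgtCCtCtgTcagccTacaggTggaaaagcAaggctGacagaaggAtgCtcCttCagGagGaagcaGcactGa
Rps27l: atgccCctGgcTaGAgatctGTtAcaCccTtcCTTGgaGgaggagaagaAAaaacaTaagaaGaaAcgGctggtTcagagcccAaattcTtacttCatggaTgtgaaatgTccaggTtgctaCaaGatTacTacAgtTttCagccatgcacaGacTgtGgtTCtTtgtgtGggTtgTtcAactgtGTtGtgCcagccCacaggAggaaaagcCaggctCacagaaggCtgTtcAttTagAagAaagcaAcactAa
They differ at 61 positions and are 76.1% identical, and the longest stretch without a difference is 11 bases. Of the differences, 53 fall on the third base of a codon, 4 on the first and 4 on the second. How reads with several matches were counted is not given in the sources used here.

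Rps27l took 13.9%, 14.7% and 12.2% of the counts on Rps27 plus Rps27l in the saline normal-diet group. On vitamin A after saline the share was lower, at 9.24%, 9.08% and 9.31%. At 1 day after cyclophosphamide it was 21.8%, 20.4% and 21.1% on the normal diet and 34.5%, 32.1% and 33.0% on vitamin A. At 3 days it was 20.1%, 22.1% and 18.9% on the normal diet and 19.4%, 15.03% and 18.8% on vitamin A. All 12 cyclophosphamide libraries had a higher share than all 6 saline libraries, and the 3 vitamin A libraries at 1 day had the highest shares of the 18. These are shares of counts, not of transcripts, since the gene models differ in length (575 and 2748 bases). Rps27rt, a near-identical copy of Rps27, held 42.1 to 193.5 CPM and can draw reads from it. With Rps27rt added to Rps27, the Rps27l share was 8.09% ± 0.344 (SD, n = 3) after saline and 26.2% ± 4.04 at 1 day on vitamin A, and 11.3% ± 0.605 and 18.6% ± 0.379 on the normal diet.

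**Figure D3:**
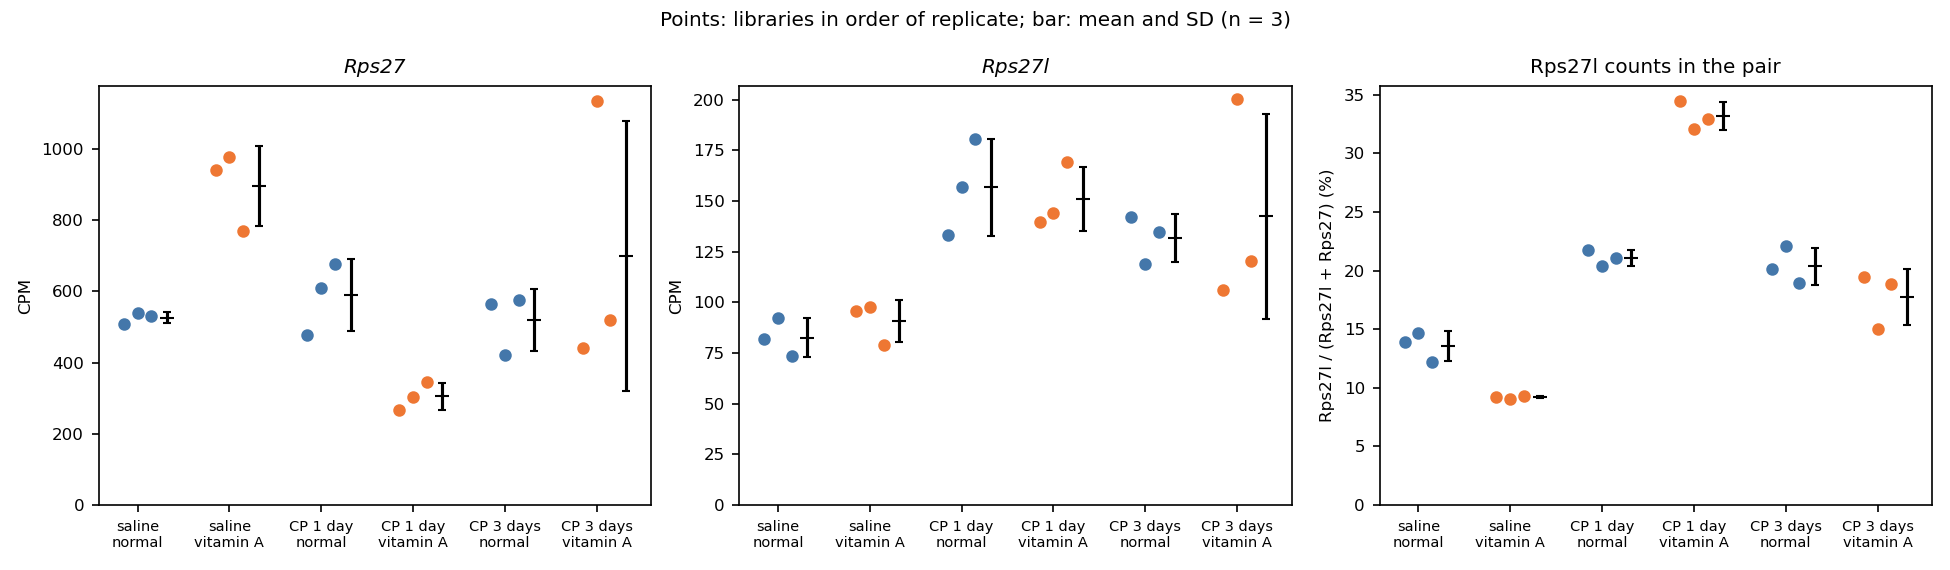
CPM of Rps27 (left) and Rps27l (middle) and the share of Rps27l in the counts of both (right, %), by group, with 1 point per library and a bar for mean and SD (n = 3). CP is cyclophosphamide. Rps27 is lowest at 1 day on vitamin A (266 to 344 CPM), where the Rps27l share is highest (32.1% to 34.5%).

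The diet was compared within each condition. After saline, no member passed the edgeR threshold, against 0.0104% of all genes, and 5 had an unadjusted p under 0.05. The same comparison gave 0 members with DESeq2, 8 higher with limma voom and sample weights, and 1 in the fit on only the groups compared. Of 78 log2 changes 75 were above 0, with a median of 0.25, and 31 members had all vitamin A values above all normal-diet values, against 7.2% of all genes, and none had them below, against 8.05%. Among these was Rps27, with 509 to 539 CPM on the normal diet and 768 to 978 CPM on vitamin A (log2 change 0.79, SE 0.28, edgeR adjusted p = 1). The other genes under 1 kb had a median of 0.17 here, and with scaling factors from them the member median was 0.08. Rps27l had a change of 0.15 (edgeR adjusted p = 1), which became −0.02 with those factors. The authors' deposited table for this comparison lists 2063 features with an unadjusted p up to 0.05, 231 of them with an adjusted p under 0.05. The table holds 50 members, all higher on vitamin A, 15 of them with an adjusted p under 0.05. How many features were tested there, and the directions of the other listed features, are not given here. These member counts therefore have no share over all features beside them, and they come from the same libraries. It gives Rps27 a log2 change of 0.78 with an adjusted p of 4.6e-10.

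At 1 day after cyclophosphamide the diet difference had the opposite sign. No member passed the edgeR threshold, against 0.466% of all genes, 4 had an unadjusted p under 0.05, and DESeq2 and limma voom called 1 each, lower. The median log2 change was −0.28, 76 of 78 were below 0, and 44 members had all vitamin A values below all normal-diet values, against 7.89% of all genes, and none above, against 7.85%. Rps27 had the largest difference, with 478.5 to 677 CPM on the normal diet and 266 to 344 CPM on vitamin A (−0.96, SE 0.28, edgeR adjusted p = 0.145). The other genes under 1 kb had a median of −0.07, and the member median was −0.24 with factors from them and −0.21 with their share as a covariate. Rps27l did not follow, with a log2 difference of −0.07 (SE 0.21, edgeR adjusted p = 0.955), a sign that turned without 1-day vitamin A replicate 1 (0.001123), without 1-day normal-diet replicate 3 (0.05) and with the short-gene covariate (0.004017). The authors' deposited table lists 2219 features at 1 day, 377 of them with an adjusted p under 0.05. The table holds 35 members, all lower on vitamin A, 6 of them with an adjusted p under 0.05. Here too no share over all features, and no direction of the other listed features, is given. It gives Rps27 a log2 change of −0.96 with an adjusted p of 5.12e-06.

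At 3 days no member passed the edgeR threshold, against 0.00518% of all genes, 8 had an unadjusted p under 0.05, and neither DESeq2 nor limma voom called any. The median was 0.37 with 76 of 78 above 0, and it rested on replicate 2 of the vitamin A group: without that library it was −0.06. A single member had groups apart, lower on vitamin A (5.06% of all genes were, and 1.98% higher), namely Rpl29, named after its value was seen. The authors' deposited table lists 693 features at 3 days, 5 of them with an adjusted p under 0.05. The table holds 2 members, both higher on vitamin A and neither with an adjusted p under 0.05, again without a share over all features. These 3 diet comparisons share no libraries with each other, but each shares its groups with the comparisons of cyclophosphamide and saline. The difference between the diet effects at 1 day and after saline had a median of −0.54 over the members, with 76 of 78 below 0. In the edgeR test of that interaction 0 members passed, as did 0% of all genes, 20 members had an unadjusted p under 0.05, and DESeq2 called 1 and limma voom 12, all lower. For the unadjusted p, DESeq2 and limma voom no share over all genes is given here. Rps27 had the largest interaction, −1.75 (SE 0.40, edgeR adjusted p = 0.149). For the change of the diet effect from 1 to 3 days, 0 members passed, as did 0% of all genes, 30 had an unadjusted p under 0.05, DESeq2 called 1 and limma voom 0. Its median was 0.64, and 0.23 without 3-day vitamin A replicate 2.

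From 1 to 3 days after cyclophosphamide on the vitamin A diet, 4 members rose and none fell, against 2.55% of all genes that rose and 1.69% that fell (4.24% together). DESeq2 called 12 higher, limma voom 0, the fit on only the groups compared 0 and the short-gene covariate 60 higher. Rps27a rose by 1.51 on the log2 scale (SE 0.34, edgeR adjusted p = 0.0166), from 223, 319 and 270.2 CPM to 512, 1044 and 695 CPM. Rps27 rose by 1.24 (SE 0.28, edgeR adjusted p = 0.0190), from 266 to 344 CPM at 1 day to 441, 1133 and 520.3 CPM. Rpl3, which shapes the peptidyl transferase centre, rose by 0.69 (SE 0.18, edgeR adjusted p = 0.0326), from 616, 602 and 514 CPM to 752, 1211 and 776 CPM. In these 3 genes the 3-day values lay above all 1-day values, with replicate 2 the highest. The change of Rpl3 is uncertain because of its pseudogenes. The median member change was 0.46, with 75 of 78 above 0, and 14 members had groups apart and higher, against 7.27% of all genes, with none lower, against 8.36%. Without replicate 2 the median was 0.03 and no member passed in edgeR. The changes without it were 1.13 for Rps27a (adjusted p = 0.0813), 0.63 for Rps27 (0.0538) and 0.38 for Rpl3 (0.0733). The count was 20 without 3-day vitamin A replicate 1 and 13 without its replicate 3. It was 3, 1 and 1 without 1-day vitamin A replicates 1, 2 and 3. Without 1-day vitamin A replicate 2 the calls on Rps27 (0.0572) and Rpl3 (0.0648) were lost, and without its replicate 3 those on Rps27a (0.0658) and Rpl3 (0.131).

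On the normal diet no member passed between 1 and 3 days in edgeR, against 1.22% of all genes that rose and 0.217% that fell (1.44% together), 1 member had an unadjusted p under 0.05, and DESeq2 called 0 and limma voom 10 lower. The median was −0.19 with 70 of 78 below 0, a direction that turned to 0.06 with factors from other genes under 1 kb and to 0.18 with their share as a covariate. The first of these moved the median of all genes by 0.25. In 11 members the groups were apart and lower, against 7.88% of all genes.

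At 3 days after cyclophosphamide no member passed against saline in either diet. On the normal diet 0 passed in edgeR, against 6.74% of all genes that rose and 3.3% that fell, 2 had an unadjusted p under 0.05, and the median was −0.05. On that diet 6 members had 3-day values above all saline values, against 23.7% of all genes, and 1 below, against 14.3%. DESeq2 called 1 member and limma voom 6. On vitamin A 0 passed, against 4.32% that rose and 1.67% that fell (5.98% together), 1 had an unadjusted p under 0.05, and DESeq2 called 1 and limma voom 6. The vitamin A median was 0.07, but −0.37 with 12 members lower without replicate 2 of that 3-day group, and −0.18 with factors from other genes under 1 kb. Rps27l was the member with the smallest p in both diets. It had 142, 119 and 134.5 CPM at 3 days on the normal diet, all above the saline values (0.62, SE 0.21, edgeR adjusted p = 0.0717), and 106, 200.4 and 121 CPM on vitamin A, also all above (0.65, SE 0.21, edgeR adjusted p = 0.0764). Without replicate 2 the latter was 0.26, and without replicate 1 it was 0.85 with an adjusted p of 0.0132.

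**Figure D4:**
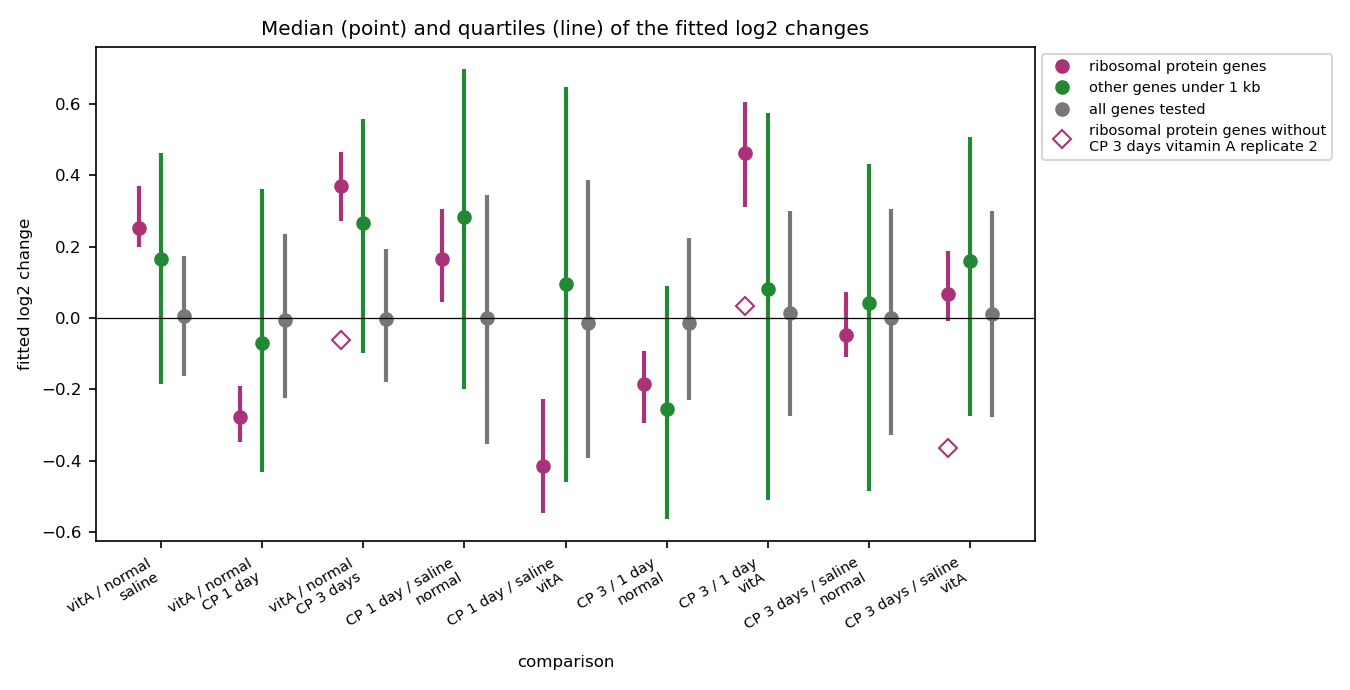
Median (point) and quartiles (line) of the fitted log2 change of the 78 ribosomal protein genes, of 1785 other genes under 1 kb and of all 19323 genes tested, in 9 comparisons. CP is cyclophosphamide, and open diamonds give the ribosomal protein median without replicate 2 of the 3-day vitamin A group. That library moves the medians of 0.37, 0.46 and 0.07 to −0.06, 0.03 and −0.37.

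Of 3 members commonly used as references in PCR, none passed at 1 day in either diet. The values of Rps18, 1 of the 3, are uncertain because a pseudogene held 50.5% of the family's counts. Rplp0, of the P stalk, had 1077, 1032 and 965 CPM after saline and 917, 1068 and 855 CPM at 1 day on vitamin A (−0.14, SE 0.19, edgeR adjusted p = 0.645). Rpl13a had 1312, 1196 and 1047 CPM and 999, 1207 and 1050.0 CPM in the same groups (−0.16, SE 0.24, edgeR adjusted p = 0.704). The values of both genes overlapped between the groups. Rps18 had 35.7, 33.1 and 28.6 CPM after saline and 19.4, 26.2 and 20.2 CPM at 1 day on vitamin A, with no overlap (−0.59, SE 0.21, edgeR adjusted p = 0.0508), and it passed without saline vitamin A replicate 3 (0.0462) and without 1-day vitamin A replicate 2 (0.0311), and in DESeq2 (0.0375). On the normal diet Rplp0 had a log2 change of 0.16 and Rpl13a of 0.16, and both turned negative with factors from other genes under 1 kb (−0.18 and −0.17). Rps18 had 22.7, 23.6 and 25.4 CPM after saline and 27.7, 33.0 and 40.3 CPM at 1 day on the normal diet, with no overlap (0.50, SE 0.20, edgeR adjusted p = 0.128, and 0.14 with those factors). Rpl5, of the 5S particle, had 1165, 1166 and 1057 CPM after saline and 737, 864 and 736 CPM at 1 day on vitamin A (−0.56, SE 0.20, edgeR adjusted p = 0.0589). Rpl11, its partner, had 687, 642 and 630.1 CPM and 521, 533 and 434 CPM (−0.43, SE 0.21, edgeR adjusted p = 0.166). For both genes of the 5S particle the groups did not overlap. Rpsa, also known as a laminin receptor, had 1597, 1514 and 1374 CPM and 1526, 1792 and 1537 CPM (0.09, SE 0.21, edgeR adjusted p = 0.827), a sign that turned to −0.05 with factors from other genes under 1 kb. Rpl6l, the one other tested member with a name ending in l, kept within 54.8 to 101 CPM in all libraries, and its log2 changes at 1 day were 0.13 on the normal diet and 0.12 on vitamin A (edgeR adjusted p = 0.746 and 0.725).

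Most members stayed close to the member median of each of the 18 libraries. That median ran from 8.97 to 10.1 in log2 CPM, highest in replicate 2 of the 3-day vitamin A group. No such departures are given here for other genes. The SD of a member's departure from the member median of its library was 0.134 in the median member on the log2 scale, under 0.2 in 59 of 78 members and over 0.4 in 6. Across members, the log2 change at 1 day on vitamin A had a Pearson correlation of 0.26 with log2 gene length (78 genes that share libraries, a description only), and across 2157 other genes it was −0.13. After saline the diet change had correlations of −0.38 and −0.38 with length in the same sets.

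Other genes of the pathway were compared between 1 day and saline, where 7.26% of all genes rose and 4.49% fell on the normal diet, and 10.2% rose and 9.05% fell on vitamin A. Of 60 genes for assembly and ribosomal RNA synthesis, 20 rose and none fell on the normal diet (median 0.42), and 12 rose and none fell on vitamin A (median 0.20). Nop56, a core protein of box C/D small nucleolar particles, rose by 0.74 (SE 0.16, edgeR adjusted p = 0.00489) and by 0.72 (SE 0.16, edgeR adjusted p = 0.00323). Nop2, an rRNA methyltransferase, rose by 0.86 on the normal diet (edgeR adjusted p = 0.000773), and Las1l, of the machinery that cuts the spacer of precursor rRNA, by 1.16 on vitamin A (edgeR adjusted p = 0.000339). Of 81 mitochondrial ribosomal protein genes, 8 rose on the normal diet, among them Mrpl12 (0.95), and 4 on vitamin A, among them Mrpl45 (0.75), with none falling. The first count is near the share over all genes and the second is below it. Other genes whose messenger RNAs carry TOP motifs went in both directions on vitamin A. Of 12, Eef2, the translocation factor, fell by 0.63 (edgeR adjusted p = 0.0157), Eef1a1, which delivers aminoacyl-tRNA, fell by 0.53 (0.0361), and Hnrnpa1, an RNA-binding protein, rose by 0.52 (0.00327). Of 34 initiation factors, 5 rose and 4 fell on vitamin A, near the shares over all genes. Eif4a1, the helicase, rose by 0.58 (edgeR adjusted p = 0.00335), and Eif3f, a subunit of the scaffold factor, fell by 1.12 (0.000453). From 1 to 3 days on vitamin A Eif3f rose by 1.07 (edgeR adjusted p = 0.00468), and by 0.77 (0.0127) without 3-day replicate 2. Among 17 regulators, 1 rose on the normal diet and 4 on vitamin A. Mdm2 rose by 0.65 (SE 0.12, edgeR adjusted p = 0.00144) and by 0.93 (SE 0.12, edgeR adjusted p = 2.53e-05), from 72.0 to 79.8 CPM over the 6 saline libraries to 115 to 149 CPM at 1 day. Myc, which drives ribosome production, rose by 0.78 on vitamin A (edgeR adjusted p = 0.00716), and Trp53 by 0.41 (0.0235). Of 7 ribosomal proteins that the naming rule misses, Rpl7l1 rose on the normal diet (0.50, edgeR adjusted p = 0.0151) and none passed on vitamin A, where Rack1, the scaffold on the small subunit, had −0.48 (0.0572). From 1 to 3 days on vitamin A Rack1 rose by 0.66 (edgeR adjusted p = 0.0341), but had 0.41 (0.0823) without 3-day replicate 2. Of 92 tested pseudogene rows of ribosomal proteins, 1 rose and 6 fell on vitamin A at 1 day, and 5 rose from 1 to 3 days on vitamin A, where none passed in edgeR without 3-day replicate 2 (94 rows tested). Leaving that library out of these lists was chosen after the data were seen.

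Cell markers also changed after cyclophosphamide, and their part in the member changes was not tested. At 1 day on vitamin A, 8 of 9 basal urothelial markers rose and 9 of 9 fibroblast markers fell, and on the normal diet 6 of 9 rose and 7 of 9 fell. Summed basal markers were 1560 to 1725 CPM after saline and 5068 to 6970 CPM at 1 day on vitamin A, with 2114 to 2329 and 4674 to 5623 CPM on the normal diet. Summed fibroblast markers were 7127 to 7990 and 1641 to 3801 CPM on vitamin A, and 6926 to 7690 and 2179 to 3330 CPM on the normal diet, and none of these genes was at 0 in a whole group. All 15 cell cycle genes rose at 1 day in both diets, with sums of 97.9 to 115 CPM after saline and 756 to 1235 CPM at 1 day on vitamin A. On the normal diet those sums were 99.1 to 105 and 401 to 752 CPM. Summed smooth muscle markers were 28800.0 to 36130.0 CPM after saline and 14120.0 to 23320.0 CPM at 1 day on the normal diet, and on vitamin A 24750.0 to 35760.0 and 13760.0 to 26180.0 CPM, which overlapped. Umbrella cell markers were lower at 1 day in both diets, with 9760.0 to 10330.0 and 7808 to 9648 CPM on the normal diet and 9335 to 10280.0 and 6446 to 9222 CPM on vitamin A. Between diets at 1 day the sums of adipocyte markers did not overlap, at 302 to 440.3 CPM on the normal diet and 489 to 1455 CPM on vitamin A. The cell cycle sums at 1 day were also apart between diets, though narrowly, and higher on vitamin A. After saline the basal sums above did not overlap between diets.

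Start sites were read for the pyrimidine runs from which TOP motifs are known, because most members stayed close to the member median of each library. RefSeq promoter windows of GRCm38.p6 were matched to 61 of 82 members, with 73 start sites. A run of at least 8 C or T letters on the gene's strand, within 25 bases on either side of the start, was present at 34 of 73 member sites (46.6%) and at 6464 of 32851 of all sites (19.7%). The ETS-type motif CGGAAGT, or its complement ACTTCCG, was found within the 300 bases of 22 member sites (30.1%) and of 2109 of all sites (6.42%). The complement ACTTCCG holds a run of pyrimidines, so both features can share letters. Shown are 40 bases before and 20 after the start of Rps27, which fell most, of its paralogue Rps27l, which rose, of Rps6 and of Rpl13a, 5′ to 3′ on the gene's strand, with the longest pyrimidine run inside the searched window in capitals.
Rps27, chr3:90213629-90213688, minus strand: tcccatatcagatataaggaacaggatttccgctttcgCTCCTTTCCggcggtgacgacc
Rps27l, chr9:66946046-66946105, plus strand: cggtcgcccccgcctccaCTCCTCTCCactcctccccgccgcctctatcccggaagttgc
Rps6, chr4:86857348-86857407, minus strand: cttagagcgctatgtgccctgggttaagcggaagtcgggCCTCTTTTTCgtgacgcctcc
Rpl13a, chr7:45128726-45128785, minus strand: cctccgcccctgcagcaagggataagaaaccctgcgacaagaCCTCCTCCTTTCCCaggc
The longest runs were 9 bases in Rps27 and Rps27l, 10 in Rps6 and 14 in Rpl13a. The run in capitals begins 2 bases before the annotated start in Rps27 and 22 bases before it in Rps27l, where it ends upstream of the start. In Rps27l another run of 9 bases, ctcctcccc, follows after the letter a, nearer to the start. Where runs tie in length, only the first is in capitals. A match in these letters is a description and not evidence of use.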

How the data were processed

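Gene counts, deposited by the authors as 1 table of raw counts for 18 libraries of total RNA, were the values analysed. The build was GRCm39, per the submitters' processing notes, which also list DESeq2 1.20.0, featureCounts 1.5.0-p3 and HISAT2 2.0.5 without roles. Strand setting and treatment of multiply mapped reads were not given in the sources used here for these counts. The authors' deposited comparison tables hold log2 fold changes and p-values of features with a p up to 0.05. Unnamed features (0.474% to 0.810% of counts) were left out. With edgeR 4.0.16 (R 4.3.3), genes passing filterByExpr were scaled by TMM and fitted with 1 mean per group over all libraries. The robust quasi-likelihood test was used, with Benjamini-Hochberg adjustment over the 19323 genes tested and a threshold of 0.05. CPM uses the TMM library sizes. Total counts of 19439887 to 34431039 limit precision most for low members. Alternatives were relative log expression scaling, TMM factors without members or from other genes under 1 kb, that share as covariate, no count filter, the replicate block, only the groups compared, DESeq2 1.42.0, limma 3.58.1 voom with sample weights, and each library left out. The script was tested on simulated counts.

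Members and lists were chosen with earlier results of these data known. Genes were named by rule: symbols ending in l, up to 5 members each way past the threshold with the largest change, the 3 highest and 3 lowest by level per kb, Rplp0, Rpl13a, Rps18, Rpl5, Rpl11, Rps6 and Rpsa, and up to 3 genes of each other list by p. The replicate numbers were not shown to pair animals, since cages and litters are not given. Some members counted among those past the threshold are not reported here by name.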

Additional observations from a re-analysis of the deposited data

How the results depend on the processing

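Directions and counts held within 1.5 times, or medians within the 0.257 SD between replicates, under relative log expression scaling, without the count filter and with factors that left members out. That pooled SD includes the 3-day vitamin A group, at 0.556, while the other groups had 0.046 to 0.184. It exceeds several of the medians, so a median that stayed within it could still change sign. Without the filter, calls on Rps27a (0.144) and Rpl36 (0.114) at 1 day on vitamin A and on Rps27a (0.0700) for 3 days against 1 day were lost, while Rpl5 (0.0312) and Rps18 (0.0264) passed at 1 day on vitamin A. Factors from other genes under 1 kb moved the median to 0.054 for diet at 3 days, −0.17 for 1 day against saline on the normal diet and 0.29 for the diet by time interaction, and called 47 members for 1 day against saline on vitamin A. They reversed Rps27l for diet after saline (−0.018), Rplp0 (−0.18), Rpl13a (−0.17), Rpl11 (−0.11) and Rpsa (−0.026) at 1 day on the normal diet, and Rpsa on vitamin A (−0.047). The short-gene share as covariate reversed Rps27l for diet at 1 day (0.004017), Rplp0 (−0.21), Rpl13a (−0.39), Rpl11 (−0.20) and Rpsa (−0.15) on the normal diet, and Rpsa on vitamin A (−0.17). With it the called members were 2 for diet at 1 day, 23 (22 lower) and 68 (67 lower) for 1 day against saline (normal diet, vitamin A), 60 for 3 days against 1 day on vitamin A, 10 and 8 for 3 days against saline and 1 for the diet by cyclophosphamide interaction. Its medians were 0.092 (diet at 3 days), −0.35 and −0.68 (1 day), 0.18 (3 days against 1 day, normal diet) and 0.32 (diet by time).

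Member counts in this section have no share over all genes beside them. With only the groups compared, called members were 1 for diet after saline, 11 and 24 for 1 day (normal diet, vitamin A), 1 and 0 for 3 days against 1 day, 4 for 3 days on the normal diet and 2 for the interaction at 1 day. DESeq2 called 1 for diet at 1 day, 18 for 1 day on vitamin A, 12 for 3 days against 1 day on vitamin A, 1 and 1 for 3 days against saline, and 1 in each interaction. Limma voom called 8 and 1 for diet after saline and at 1 day, 11 and 46 for 1 day, 10 and 0 for 3 days against 1 day, 6 and 6 for 3 days against saline and 12 for the interaction at 1 day, with medians of 0.11 (diet at 3 days), 0.19 (3 days against 1 day, vitamin A) and −0.24 (3 days, vitamin A). The cause was not tested.

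Leaving out each library gave 1 to 11 called members for 1 day on vitamin A, 1 to 2 on the normal diet, 0 to 20 (median 0.034 to 0.69) for 3 days against 1 day and 0 to 12 (−0.37 to 0.31) for 3 days against saline on vitamin A. Medians ranged from −0.062 to 0.60 for diet at 3 days and from 0.23 to 0.88 for diet by time. Rps27l for diet at 1 day turned to 0.001123 and 0.052 (lowest −0.173), and Rpsa at 1 day on vitamin A ranged from −0.017 over −0.006888 to 0.152.

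With the replicate number as a block, 1 member was called at 1 day on the normal diet, 9 on vitamin A and 3 for 3 days against 1 day, Rps2 (0.0595) and Rps27a (0.0666) being among those lost. The numbers carry no stated pairing: deviations of 45 same-number pairs had a mean correlation of −0.006 (6 over 0.1), and 9 of 18 libraries correlated best with their own number. P-values measure the spread between these libraries, and low members such as Rpl3l were not testable at this depth.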

Other observations

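Among tested members, Rpl30 and Rpl17 departed most from the member median of each library, with SDs of 1.38 and 0.62 on the log2 scale, and they were picked after their values were seen. Rpl30, whose protein is known to control splicing of its own transcript in yeast, had 12.3, 13.1 and 97.7 CPM after saline on the normal diet and 15.9, 83.9 and 110.1 CPM on vitamin A. At 1 day it had 99.8, 11.9 and 14.98 CPM on the normal diet and 70.7, 14.3 and 20.7 CPM on vitamin A. At 3 days it had 15.2, 15.4 and 108.0 CPM on the normal diet and 91.4, 26.1 and 15.5 CPM on vitamin A. Low and high values thus occurred within every group. Rpl17 ranged from 79.5 to 319 CPM at 1 day on vitamin A and from 108 to 479 CPM at 3 days on vitamin A. The cause was not tested.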
